A study of Mus musculus with 31 samples.

Results

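In NIH-3T3 cells, 626 of the 62151 autosomal intervals between neighbouring accessible sites held 500 kb or more of sequenced bases, which is 1.01% of the intervals. These long stretches without a peak added up to 688.9 Mb, or 28.8% of the 2395.9 Mb of autosomal sequence. They were selected on the peaks of this library itself: each runs from the end of 1 ATAC-seq peak to the start of the next on chromosomes 1 to 19 of the mm10 mouse genome, and only bases that are not N were counted. Their number, their length and their lack of peaks are therefore descriptions and are not tested. ATAC-seq marks accessible chromatin by the insertions of the Tn5 transposase, and a peak is a site where such insertions pile up above the local background.

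The series asked how the overexpression of 13 transcription factors changes chromatin accessibility in NIH-3T3 cells, with cells that express only rtTA3G (the doxycycline-dependent transactivator) as controls. The stretches come from 1 other library, the parental line labelled WT NIH-3T3, made from 50000 cells with 0.5 µM of in-house Tn5. The methods describe doxycycline before ATAC-seq, while the label of the parental sample names no such treatment. The 30 other samples are not analysed here, and with 1 library no value has a replicate error.

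NIH-3T3 is an immortal, long-cultured line of mouse embryonic fibroblasts, and such lines can differ from the animal in their chromosomes. A peak lay within 1 kb of the 5′ end of 11 of 12 fibroblast marker genes, 1 of 5 epithelial, 1 of 5 blood, 2 of 4 endothelial and 0 of 4 neuronal markers. Over all autosomal coding genes 50.0% had no such peak, so the endothelial count is that of genes in general. No fibroblast, epithelial or endothelial marker started inside a stretch. Of the 4 neuronal markers only Syt1 did, and of the 5 blood markers only the T cell marker Cd3e. Over all autosomal coding genes the share was 11.6%, so these counts set no cell type apart. The peak list holds no read totals, so the depth behind a missing peak is unknown. A stretch whose DNA is absent from the line and a stretch whose chromatin is closed give the same empty list, and the peaks alone cannot tell them apart.

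Mammalian genomes alternate between GC-rich, gene-rich domains and AT-rich domains with few genes, many of which lie at the nuclear lamina in a closed state. CpG-rich promoters, called CpG islands, are the start sites of most broadly used genes and of many developmental regulators, and at broadly used genes they are commonly accessible in every cell type. Large tandem families such as the olfactory receptors have CpG-poor promoters, and each receptor is used by a small share of sensory neurons.

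The bases just upstream of a few gene starts show CpG-rich promoters of the stretches, which are a minority there, beside 1 CpG-poor receptor promoter. They were read from the mm10 reference in the direction of transcription, end at the base before the annotated 5′ end, and have CpG dinucleotides in capitals. Gm21953 and Phf24 lie in a stretch on chromosome 4 that shares the highest number of CpG-rich promoters, Olfr996 is an olfactory receptor gene of the stretch with the most receptors, and Map3k21, Peg10 and Slc35f2 were added after their values were seen to show dense and sparse CpG. They occupy chr4:42294017-42294266, chr4:42916410-42916659, chr2:85578965-85579214, chr8:125910200-125910449, chr6:4747208-4747305 and chr9:53771288-53771537, in the order Gm21953, Phf24, Olfr996, Map3k21, Peg10 and Slc35f2, all for genes on the plus strand.
Gm21953: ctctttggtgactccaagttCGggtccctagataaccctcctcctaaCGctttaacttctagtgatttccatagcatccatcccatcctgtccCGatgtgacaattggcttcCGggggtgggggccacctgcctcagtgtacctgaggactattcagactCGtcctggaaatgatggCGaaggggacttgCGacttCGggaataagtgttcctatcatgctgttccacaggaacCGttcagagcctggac
Phf24: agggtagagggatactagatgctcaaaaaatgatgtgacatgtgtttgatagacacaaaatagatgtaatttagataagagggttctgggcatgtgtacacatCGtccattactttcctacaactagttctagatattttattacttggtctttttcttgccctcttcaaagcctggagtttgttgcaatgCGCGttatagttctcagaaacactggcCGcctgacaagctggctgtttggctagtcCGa
Map3k21: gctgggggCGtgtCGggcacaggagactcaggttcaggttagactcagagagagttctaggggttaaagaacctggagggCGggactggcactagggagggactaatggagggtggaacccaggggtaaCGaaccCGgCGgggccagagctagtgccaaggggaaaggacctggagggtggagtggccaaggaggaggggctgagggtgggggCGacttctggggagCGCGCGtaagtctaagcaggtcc
Peg10: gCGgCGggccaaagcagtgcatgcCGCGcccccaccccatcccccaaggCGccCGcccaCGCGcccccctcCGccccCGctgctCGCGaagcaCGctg
Slc35f2: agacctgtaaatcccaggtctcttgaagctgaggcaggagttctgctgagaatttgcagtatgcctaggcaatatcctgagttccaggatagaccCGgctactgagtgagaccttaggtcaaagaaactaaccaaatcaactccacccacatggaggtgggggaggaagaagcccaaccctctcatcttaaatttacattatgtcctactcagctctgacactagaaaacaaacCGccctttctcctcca
Olfr996: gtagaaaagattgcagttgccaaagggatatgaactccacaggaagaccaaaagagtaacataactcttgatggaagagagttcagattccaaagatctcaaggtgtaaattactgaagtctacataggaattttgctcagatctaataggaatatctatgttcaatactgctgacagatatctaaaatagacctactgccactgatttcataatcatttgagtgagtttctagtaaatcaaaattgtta
The Gm21953 bases were identical to those before Gm21586 in the same stretch, with 0 of 250 positions different. The 98 bases before Peg10 are the whole gap between the divergent starts of Peg10 and Sgce, and they held 13 CpG. The 250 bases before Map3k21 held 10 CpG at 63.2% GC, and those before Phf24 held 5 at 41.2%. The 250 bases before Slc35f2 held 2 CpG, those before Ppp1r9a 3 and those before Mpped1 4, as the CpG-rich limits were set on bases to both sides of the start. The 250 bases before Olfr996 held 0 CpG at 34.4% GC.

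The stretches ranged from 500.0 kb to 8105 kb, with a median of 830 kb and quartiles of 631 and 1286 kb. The median of all autosomal intervals was 12128 bp. Lengths of 1 Mb or more were reached by 237 stretches, of 2 Mb by 66 and of 3 Mb by 18. The shortest members were chr11:55607989-56108000 (500.0 kb, with the glycine receptor gene Glra1 and the neuromedin receptor gene Nmur2), chr3:17498548-17999709 (501.2 kb, with Cypt12) and chr2:64414156-64915634 (501.5 kb, with no coding gene start). Just outside the limit lay chr4:4023190-4522307 (499.1 kb), chr10:83840728-84339542 (498.8 kb) and chr10:102125663-102622773 (497.1 kb).

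**Figure D1:**
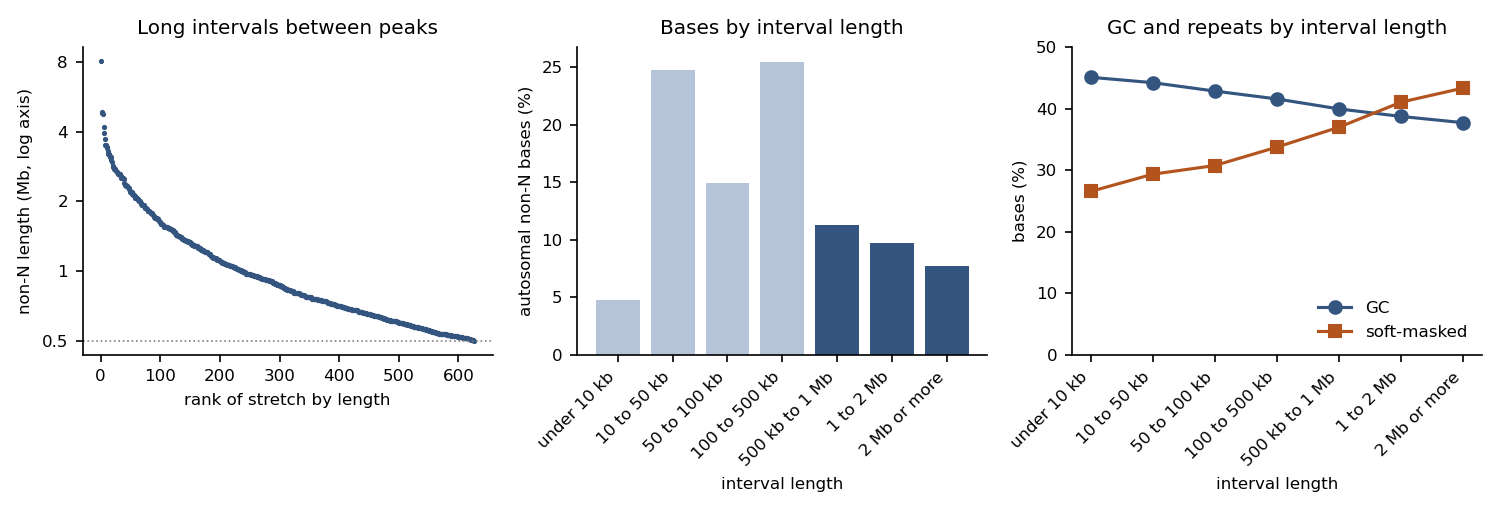
Left, the non-N length of each of the 626 stretches in Mb on a log axis against its rank, with the limit of 0.5 Mb dotted. Middle, the share of autosomal non-N bases in intervals of each length class, with stretches in dark blue. Right, GC and soft-masked bases in % of non-N bases per length class. GC was lower and the soft-masked share higher in each longer class, from 45.1% and 26.5% in intervals under 10 kb to 37.7% and 43.3% in those of 2 Mb or more.

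Long stretches occurred on every autosome but took very different shares of them. Chromosome 14 had the highest share, with 42.0% of its bases in 40 stretches, followed by chromosome 7 with 39.5% in 44. Chromosome 13 had the lowest share, with 14.2% in 18 stretches. Between these ends, chromosomes 2, 11, 15 and 19 lay between 20.4% and 21.1%, and chromosome 1 held the most stretches, 57, at 30.8% of its bases.

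**Figure D2:**
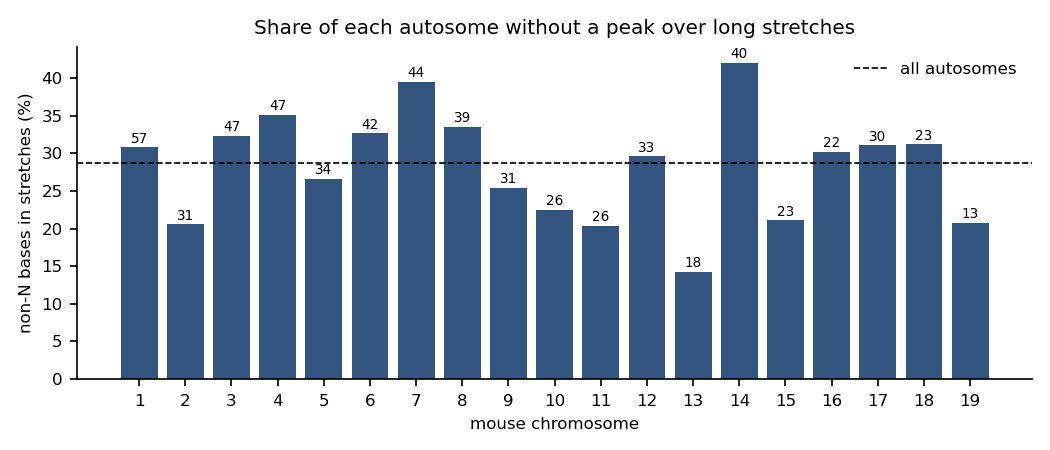
Share of each autosome's non-N bases that lies in long peakless stretches, in %, with the number of stretches above each bar and the share over all autosomes (28.8%) as a dashed line. Chromosomes 14 and 7 stand highest, at 42.0% and 39.5%, and chromosome 13 lowest, at 14.2%.

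Stretches were poor in GC and rich in repeats. Their pooled GC was 38.9%, against 41.9% over the autosomes and 43.2% over the autosomal sequence outside them. Of the 626 stretches, 527 (84.2%) lay below the autosomal GC. The lowest, 35.2%, was a stretch inside Csmd3 at chr15:47867182-48546720, and the highest, 51.1%, was chr4:139716771-140500836 with Pax7, Klhdc7a and Igsf21. The ratio of observed to expected CpG was 0.155 in the stretches and 0.194 over the autosomes.

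Soft-masked bases, which the reference marks as interspersed or simple repeats, made up 40.1% of the stretches, 33.5% of the autosomes and 30.8% of the remaining autosomal sequence. The share was above that of the autosomes in 439 stretches (70.1%). It went from 17.6% to 66.0%, the latter in the vomeronasal receptor cluster at chr7:19956764-22776118.

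Only read pairs with 1 place in the genome were kept upstream, so a pair lying wholly in sequence with identical copies was dropped. Such sequence was less able to give a peak, but a pair that reached into single-copy sequence could still count. Of 75-base sequences sampled every 1 kb, 88.9% occurred once in the genome in the stretches (95% Wilson interval 88.9 to 89.0%, for sampling only, n = 688842) and 92.5% did over the autosomes. The median stretch had 92.0% of such single-copy sequence, so most stretches were readable over nearly their whole length. The share was under 90% in 177 stretches, under 80% in 38 and under 50% in 18. These 18 held 22.2 Mb and 311 coding gene starts, and 3 of them held no coding gene. The lowest, 2.65%, was chr2:175176116-177073654, a cluster of zinc finger genes with 26 coding gene starts. In 553 stretches the single-copy part alone reached 500 kb, and these held 2033 of the coding genes.

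**Figure D3:**
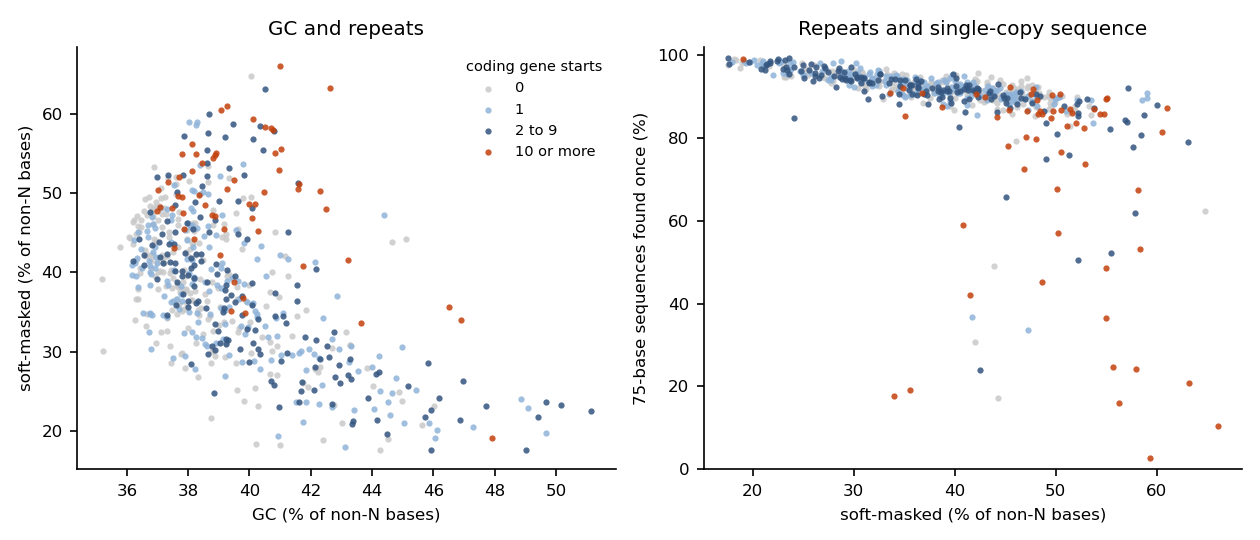
Each point is 1 of the 626 stretches, coloured by its number of coding gene starts. Left, soft-masked share against GC, both in % of non-N bases. Right, the share of sampled 75-base sequences found once in the genome, in %, against the soft-masked share. Most points lie on a band near 92.0% single-copy sequence, and the 18 stretches under 50% are mostly gene clusters with 10 or more starts.

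Coding genes were sparse and unevenly spread. A coding gene was counted in a stretch when its 5′ end lay there. The stretches held 2412 of 20807 autosomal coding genes (11.6%), or 3.50 per Mb against 8.68 per Mb over the autosomes. Of the 626 stretches, 224 (35.8%) held no coding gene start, 184 held 1, 160 held 2 to 9, and 58 held 10 or more. These 58 contained 1675 of the 2412 genes (69.4%). Their median soft-masked share was 49.7% and their median single-copy share 85.2%, against 39.2% and 92.2% in the stretches with no coding gene start.

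Some stretches without a start lay within a gene. In 24 cases the whole stretch was inside the annotated span of 1 coding gene. Among these genes were Cntnap5a, Nrxn3, Lsamp, Cadm2, Dlg2 and Cntn4, which are genes of neuronal adhesion or the synapse. The growth factor receptor gene Fgfr2 and the potassium channel gene Kcnma1 were also among them. Such a span covers every annotated transcript, so it can reach well beyond the main transcript of a gene. Coding gene spans covered 23.0% of the bases in stretches and 41.3% of autosomal bases. Only 4 stretches held no annotated gene start of any type.

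Some other gene types had a higher share in stretches than coding genes. Of autosomal pseudogenes, 3548 of 11594 (30.6%) began in a stretch. The share was 12.1% for long noncoding RNAs (1140 of 9426) and 12.0% for microRNAs (247 of 2054), close to the 11.6% of coding genes. Small nucleolar RNA genes had 31.7% (457 of 1442), and over all annotated genes it was 17.7% (9069 of 51229).

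Of the coding genes in stretches, 1378 (57.1%) belonged to the gene families examined, which were set by symbol. The chemosensory receptors were the largest group. Olfactory receptors, which detect odours in the nose, placed 833 of their 1128 autosomal members in 23 stretches. Vomeronasal receptors, which detect pheromones, placed 231 of 327 in 19 stretches. Together these 1064 genes were 44.1% of all coding genes in the stretches, and none had a closed CpG-rich promoter in a stretch. Outside and inside stretches together, 1120 of the 1128 olfactory receptor genes had no peak within 1 kb of the 5′ end, against 50.0% of all autosomal coding genes. Bitter and sweet taste receptors placed 12 of 38, and the 15 trace amine-associated receptors lay outside stretches.

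The stretch with the most coding genes was chr2:85561446-90422267, 4.86 Mb long, with 227 coding gene starts of which 221 were olfactory receptors. Its GC was 37.1%, its soft-masked share 48.2% and its single-copy share 85.8%, so most of its sequence was readable. The vomeronasal cluster with the most members was chr7:19956764-22776118, with 43 receptors among 75 coding gene starts. Here 10.4% of the sampled 75-base sequences and 18.4% of 150-base ones occurred once, so much of this cluster was hard to read.

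Secreted proteins of glands and of defence formed the next group. The exocrine gland-secreted peptides, which include pheromones of tears and saliva, had 15 of 15 members in 3 stretches. The major urinary proteins, which carry pheromones in urine, had 18 of 22 in 1 stretch, chr4:59933221-61811168, at 24.3% single-copy sequence. The secretoglobins had 26 of 34 in 1 stretch, chr7:31208579-33982427, at 48.7%. Defensins, antimicrobial peptides of epithelia, had 41 of 64 in 3 stretches, with 31 of them in chr8:20996697-21955465 at 45.2%. Among families outside this group, Skint genes had 9 of 11 and PRAME-like genes 9 of 11. Keratins and keratin-associated proteins had 18 of 113, all in the stretch chr16:88823990-89773934. Cytochrome P450 enzymes had 31 of 100 in 3 stretches.

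Gene segments of the antigen receptors, which are joined in B and T cells only, had 256 of 494 in 6 stretches. The stretch chr6:67699206-70709371 held 100 of them over 3.01 Mb and not a single coding gene start. Its single-copy share was 82.8%.

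The next lists had few members in any 1 stretch. The list of neuronal adhesion and axon guidance genes had 39 of 110 members in 37 stretches. Glutamate and GABA receptor subunits had 16 of 42 in 10, of which chr11:40927604-43263964 held 4. Cadherins and protocadherins had 14 of 90 (15.6%) in 13 stretches, and 77 of the 90 lacked a peak within 1 kb of the 5′ end. Genes with such a peak are almost barred from stretches by the rule. Of all autosomal coding genes without one, 23.1% (2402 of 10400) began in a stretch. A share between 11.6% and 23.1%, as for cadherins, therefore does not set a family apart. Potassium channels had 10 of 92 (10.9%) in 9, developmental transcription factors 20 of 251 and Zfp zinc finger genes 21 of 404, shares below the 11.6% of all coding genes. Several tandem families had 0 members in stretches: prolactins (0 of 26), serpins (0 of 60), type I interferons (0 of 20), killer cell lectin-like receptors (0 of 26) and UDP-glucuronosyltransferases (0 of 22). Most members of these families also lacked a peak within 1 kb, as 50 of 60 serpins and 24 of 26 lectin-like receptors did, against 50.0% of all coding genes, but none of their starts lay in a long stretch.

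**Figure D4:**
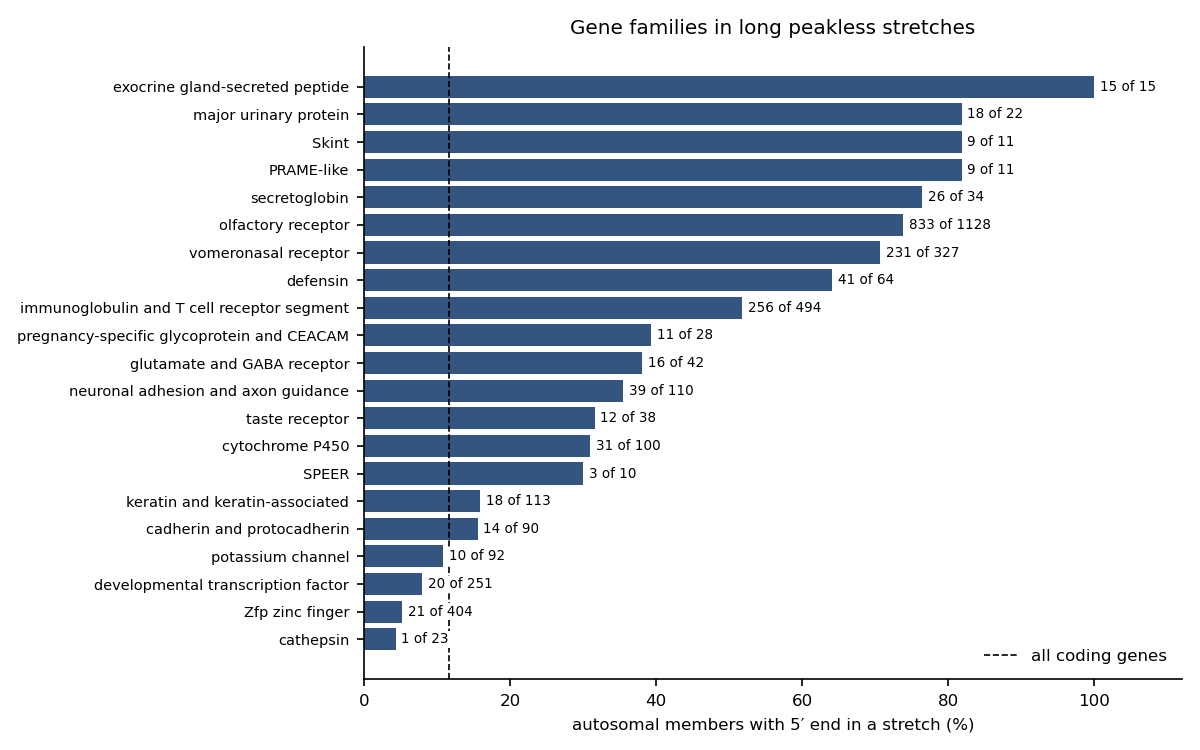
Share of the autosomal members of each gene family whose 5′ end lies in a long peakless stretch, in %, for the families with at least 1 such member, with counts beside the bars. The dashed line is the share of all autosomal coding genes (11.6%). Among coding genes without a peak within 1 kb of the 5′ end the share was 23.1%. Exocrine gland-secreted peptides reach 15 of 15, and olfactory receptors 833 of 1128.

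Of the 10 longest stretches, 9 held 3 or fewer coding gene starts, and the second longest was the olfactory receptor stretch with 227. The longest, chr14:88395438-96500074, spanned 8.10 Mb with Pcdh20, Pcdh9 and 4921530L21Rik. The 5′ end of Pcdh9, a protocadherin, was 2609 kb from the nearest peak, the greatest distance of any CpG-rich promoter in a stretch. The third longest, chr14:106163443-110980336 (4.82 Mb), held Slitrk1 and Slitrk6, which steer neurite growth. The fifth, chr14:82065565-86254158 (4.19 Mb), held Pcdh17 alone.

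The fourth was chr5:58737044-63540660 (4.80 Mb; G6pd2, Arap2 and Dthd1). The sixth was chr4:35551360-39508828 (3.96 Mb), with the neuronal leucine-rich repeat gene Lingo2. The seventh was chr6:73368372-77101179 (3.73 Mb). The eighth and the last of the 10, chr3:45556017-49062033 (3.51 Mb, Pabpc4l) and chr3:42111324-45555876 (3.44 Mb, Pcdh10), were separated by 1 peak. The ninth was chr7:52038374-55539960 (3.50 Mb, Luzp2). GC in these 10 lay between 36.2% and 38.0%, and the single-copy share between 85.8% and 92.9%, the lowest being the olfactory receptor stretch, which is the second longest.

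Stretches often followed each other. In 104 cases 1 peak separated a pair of stretches, and 191 stretches lay in 87 such runs. The run with the most stretches had 6 and reached from chr15:15681794 to 20642951, with the cadherin genes Cdh9, Cdh10 and Cdh12. A run of 4 on chromosome 4 (chr4:74563789-78234773) held Ptprd alone, and a run of 3 on chromosome 14 (chr14:106163443-114791547) held 8.63 Mb with Slitrk1, Slitrk6, Slitrk5 and Tpm3-rs7.

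The 1148 peaks at the borders were about as high as other peaks but narrower and less often at gene starts. Their median fold enrichment over background was 5.78, against 6.04 over all 62170 autosomal peaks, and their median −log10 q was 9.92 against 13.6. Their median width was 234 bp against 327 bp. A gene start lay within 1 kb of 16.8% of border peaks and of 25.4% of all peaks. Peaks with over 90% soft-masked bases were 2.70% of border peaks and 0.857% of all peaks. For the 104 peaks between neighbouring stretches, gene starts lay near 6.73% and 5.77% were over 90% soft-masked.

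A CpG-rich coding promoter was defined by a GC of at least 55% and an observed to expected CpG ratio of at least 0.6 in the 500 bp to either side of the gene's 5′ end. It was called closed when no peak lay within 1 kb of that end. Over the autosomes, 10400 of 20807 coding promoters (50.0%) and 1650 of 8233 CpG-rich ones (20.0%) were closed. The stretches held 181 CpG-rich promoters, of which 178 were closed. The other 3 lay near a border peak, so this count follows from the choice of intervals without peaks and says nothing more about them. CpG-rich promoters were 7.50% of the coding promoters in stretches and 39.6% over the autosomes. Most CpG-rich promoters were open and so nearly barred from stretches by the rule, so part of this gap follows from the selection. Among closed coding promoters alone, 178 of 2402 were CpG-rich in stretches and 1650 of 10400 over the autosomes.

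The 178 closed CpG-rich promoters lay in 143 stretches: 115 stretches held 1, 21 held 2, 7 held 3 and none held 4 or more. Their distance to the nearest peak ran from 1.08 kb at Zfp503 to 2609 kb at Pcdh9, with a median of 196 kb. Their genes were long, with a median span of 135 kb against 28.1 kb for all autosomal CpG-rich coding genes. Their median promoter GC was 62.7% against 62.5%, and their median CpG ratio 0.737 against 0.797. In these comparisons only 20.0% of all autosomal CpG-rich promoters were closed, and closed ones outside stretches were not compared. The stretches that held the 178 promoters had a median single-copy share of 93.9% and a median GC of 40.3%, so their sequence was for the most part readable.

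By family, the 178 contained 12 developmental transcription factors, among them Pou3f2, Pax7, Barhl2, Foxb1, Onecut1, Zic1, Sox11, Isl1, Otx2, Pou4f1 and Satb1. Zic1, a regulator of neural patterning, was 542 kb from the nearest peak, and Otx2, a head organiser gene, 211 kb. Onecut1, a liver and pancreas regulator, was 6.47 kb away. The neuronal adhesion list gave 10, glutamate and GABA receptors 6, potassium channels 4, cadherins 4 and Zfp genes 2. The same lists were not counted over all 1650 closed CpG-rich autosomal promoters, so these counts describe the 178 only. Outside these lists, the 178 included the receptor tyrosine kinase genes Kit (288 kb from a peak) and Ntrk2 (73.2 kb), the ligand genes Wnt2 (51.4 kb) and Vegfc (154 kb), and the neuropeptide gene Npy (287 kb), which were picked as examples after their values were seen.

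A stretch lost from the line would lack peaks even at promoters that are open in most cells, so the 7 stretches with 3 closed CpG-rich promoters were examined with all their genes. Having 3 is not particular to stretches, as 11 shorter peakless intervals also held 3 or more. Runs of successive closed CpG-rich promoters, which may have peaks between them, are a looser measure. The autosomes held 87 such runs of 3 or more. Of these runs 30 had 4 or more, and the longest had 11. Loss was not tested. The 7 stretches fell into a group of 3 in which little of the sequence is single-copy and a group of 4 in which nearly all is.

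In the first group, the stretch chr4:41774510-42949490 (1125 kb) had 17.8% single-copy sequence and 26 coding gene starts. These include the chemokine genes Ccl19, Ccl21a, Ccl21b and Ccl27b and copies of Fam205a. Its CpG-rich promoters were those of Gm21953, Gm21586 and Phf24. For Gm21953 and Gm21586, the sequence printed above, 0% of the 75-base sequences around the start occurred once, and their CpG ratio of 0.613 was just over the limit. Phf24 had 100% single-copy sequence and lay 32.8 kb from the peak at the right border, which lies at the open promoter of the chaperone gene Dnajb5 and has a fold enrichment of 11.7.

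The stretch chr14:25862348-26376800 (514 kb) had 19.1% single-copy sequence. It holds tandem copies of Plac9, Tmem254, Cphx and the homeobox gene Duxbl, whose product is 1 of the 13 overexpressed factors. Its CpG-rich promoters, of Plac9a, Gm9780 and Plac9b, all had 0% single-copy sequence. The stretch chr14:6990770-7749578 (759 kb, 20.7%) held 15 coding genes named Gm, among them the CpG-rich promoters of Gm10406 (67.9% single-copy), Gm3512 (19.5%) and Gm3739 (74.6%). Over the autosomes, 54 CpG-rich promoters had under 50% single-copy sequence and 77.8% of them were closed, against 19.7% of the other 8179.

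In the second group, chr8:125734492-126387718 (653 kb) had 97.2% single-copy sequence and 4 coding genes. Map3k21, a kinase gene, lay 176 kb from the nearest peak, the potassium channel gene Kcnk1 261 kb and the solute carrier gene Slc35f3 89.2 kb. Pcnx2, whose promoter missed the CpG limit at a ratio of 0.544, lay 164 kb away. The 500 kb on either side held 22 and 40 peaks, and the nearest open CpG-rich promoter, that of the mitochondrial assembly gene Coa6, was 34.8 kb past the right border with a fold enrichment of 12.5.

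The stretch chr15:83607671-84167636 (560.0 kb) had the second highest GC of all stretches, 50.2%, with 97.1% single-copy sequence. Scube1, a secreted EGF-domain protein gene, lay 117 kb from a peak, Mpped1 172 kb and the brain sulfotransferase gene Sult4a1 61.9 kb. Efcab6 and Pnpla5 were the other coding genes. The open promoter of Pnpla3 stood at the right border, 0.201 kb past it, and that of Ttll12 was 12.5 kb past the left, with 45 and 16 peaks in the 500 kb on either side.

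The stretch chr9:53696236-54264302 (557 kb, 93.9%) held Rab39, Slc35f2 and Elmod1, which are CpG-rich, and Sln and Tnfaip8l3, which are not. Rab39, a vesicle GTPase gene, was 10.0 kb inside the left border, and Slc35f2 and Elmod1 lay 75.3 and 279 kb from a peak. The flanks held 18 and 10 peaks.

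The stretch chr6:4601897-5110531 (509 kb) had 97.8% single-copy sequence, and all 3 of its coding genes, Sgce, Peg10 and Ppp1r9a, had CpG-rich promoters. Sgce, which encodes epsilon-sarcoglycan, and Peg10, a retrotransposon-derived gene needed in the placenta, are paternally expressed imprinted genes that start from the shared CpG-rich gap printed above. Both lay 145 kb from the nearest peak. Ppp1r9a, which encodes the actin-binding protein neurabin of neurons, lay 208 kb away. The open promoter of Casd1 was 1.06 kb from the left border with a fold enrichment of 10.3, and 27 peaks lay in the 500 kb to the left against 7 in the 500 kb to the right.

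**Figure D5:**
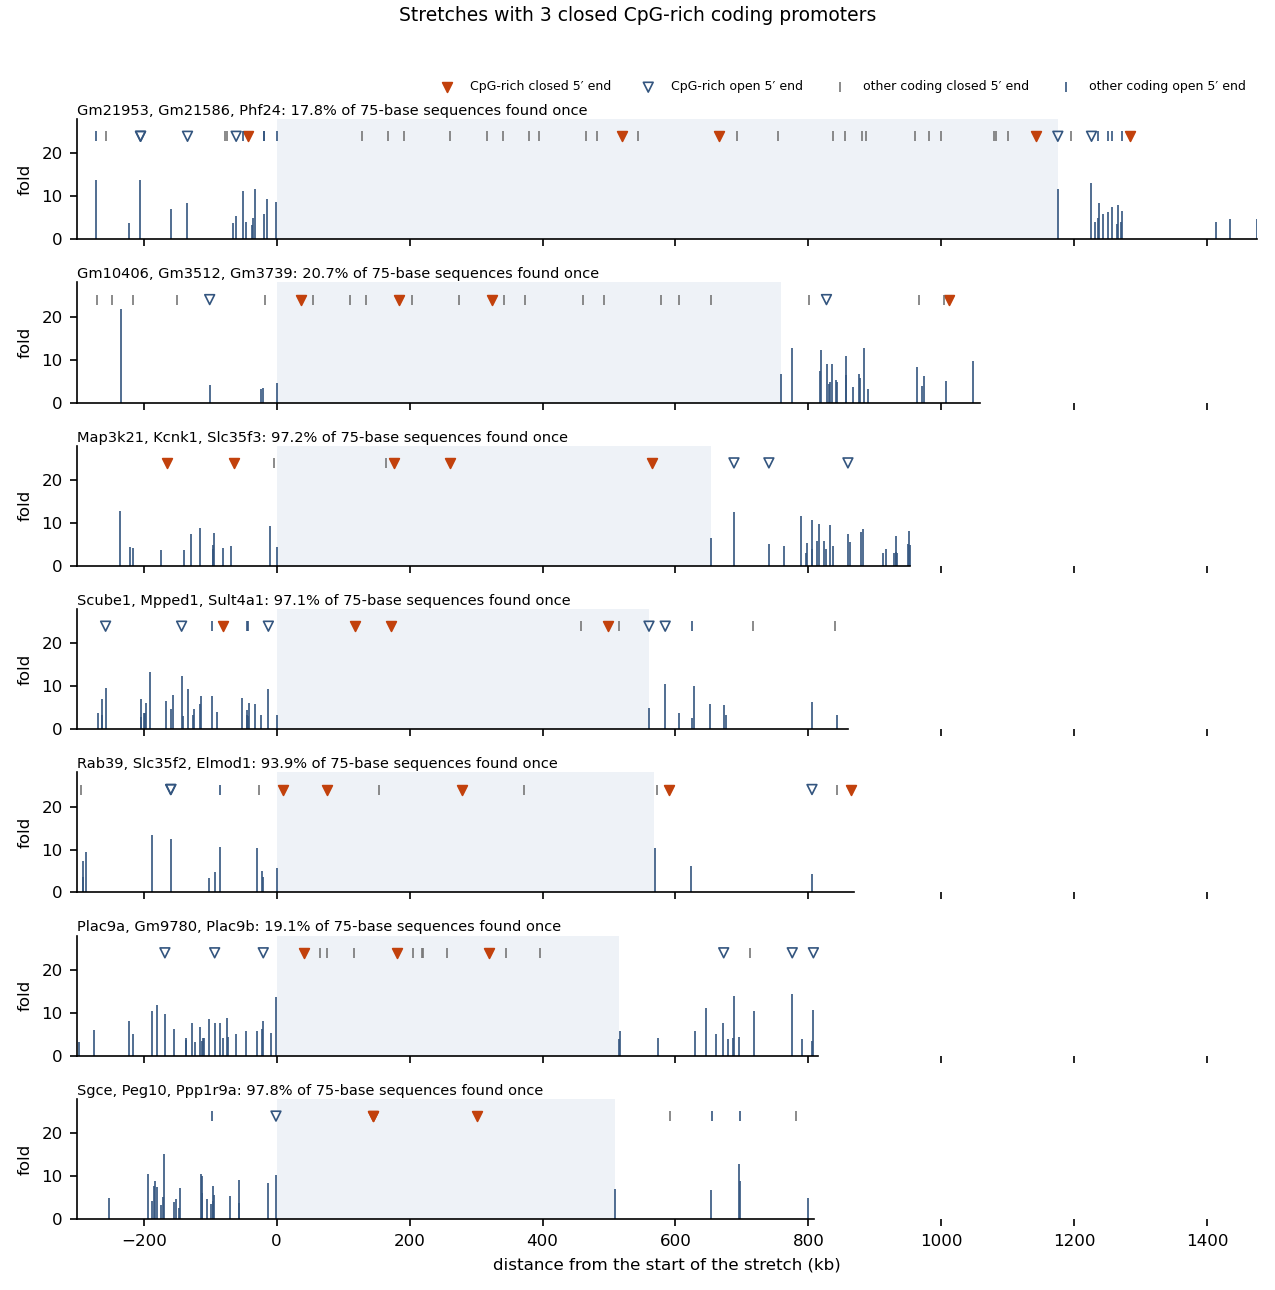
The 7 stretches with 3 closed CpG-rich coding promoters, each with 300 kb on either side, drawn by distance from the start of the stretch in kb. Blue lines are peaks with their fold enrichment on the vertical axis, triangles are CpG-rich coding gene starts (filled when closed) and short ticks are other coding gene starts; the stretch is shaded, and Sgce and Peg10 share a triangle. Peaks lie on both flanks of the Scube1 stretch (45 and 16 within 500 kb, of which 300 kb are drawn). The stretches of Gm21953, Gm10406 and Plac9a stand apart by single-copy shares of 17.8% to 20.7%.

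Among the 21 stretches with 2 closed CpG-rich promoters, the longest were taken to complete the 10, and 2 of them are given here. The stretch chr7:123465972-125383189 (1.92 Mb) held the zinc finger gene Zkscan2, 34.5 kb from a peak, and the heparan sulfate sulfotransferase gene Hs3st4, 517 kb from one. The stretch chr7:105817011-107661321 (1.79 Mb) held 34 coding genes, mostly olfactory receptors, with Rbmxl2, a male germ cell gene, 452 kb and the synaptotagmin gene Syt9 291 kb from a peak.

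Of the 13 factors overexpressed in the series, 2 have their own gene in a stretch, a share close to the 11.6% of all autosomal coding genes. Rhox11 is on chromosome X and could not lie in one. Duxbl1 lay 116 kb from the nearest peak in the repeated stretch described above. Foxa1, a pioneer factor of endoderm, lay 14.3 kb from a peak in the parental cells. Since Foxa1 and Duxbl were supplied from a transgene in the other samples, these distances describe the native genes in the parental line only.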

How the data were processed

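ATAC-seq of 1 parental NIH-3T3 library was used. As described in the methods, the authors aligned read pairs to mm10 with STAR 2.5.3a, kept pairs with a single alignment and discarded duplicates using Picard, and MACS2 2.1.1.20160309 in paired-end mode gave the peaks. The deposited peak list gives for each of 63456 peaks a score, a fold enrichment (a ratio to background), −log10 p-values and −log10 q-values, with no read counts. The methods name the removal of blacklisted and input peaks for ChIP-seq and refer to that section for ATAC-seq. The peak numbers of the list had 0 gaps, so whether this filter was used here is not known. Peaks removed by it would lengthen or create stretches.

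Intervals between consecutive autosomal peaks, GC, soft-masked bases and CpG ratios were computed from the mm10 RefSeq assembly, and 5′ ends and gene types from GENCODE M21, with numba 0.67.0, SciPy 1.17.1, pandas 2.3.3 and NumPy 2.4.6 under Python 3.11.15. All 75-base sequences taken every 1 kb were counted on both strands of chromosomes 1 to 19, X and Y, and the calculation was tested on simulated data. Gene families (27) were set by gene symbol or, for antigen receptor segments, by gene type. The families, stretches and lists were chosen with earlier results of these data known. Named stretches were the 10 longest, the 10 with most closed CpG-rich promoters (ties by length, with their coding genes), the richest stretch of each of the 5 largest families, and the 3 members or intervals nearest the limit. Other genes and stretches named, and the single-copy share of promoters, were chosen after their values were seen. Counts cover the whole annotation and have no sampling error. With 1 library, no test was made. Some genes and stretches under the naming rule are not reported here. Alternatives changed the length limit, the peaks that bound an interval, the placement of genes, the promoter limits and the length of the sampled sequence.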

Additional observations from a re-analysis of the deposited data

How the results depend on the processing

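No paired analysis was possible because 1 library was analysed and no test was made. With a limit of 250 kb there were 1319 stretches and 333 closed CpG-rich promoters, with 39.4% GC and 38.9% soft-masked bases. With a limit of 1 Mb there were 237 stretches of 418.7 Mb in all, with 1433 coding genes, 66 closed CpG-rich promoters, 152 antigen receptor segments and 2 defensins, at 38.3% GC and 42.1% soft-masked bases. The peaks that bound an interval changed little: GC was 38.93% and the soft-masked share 40.03% with only peaks of −log10 q of at least 2, 39.1% and 39.6% with at least 5, and 38.93% and 40.17% with chromosome ends included. The soft-masked share was 40.09% without peaks over 90% soft-masked. Counting only genes wholly inside a stretch left 17 neuronal adhesion genes, and a CpG ratio of at least 0.75 left 80 closed CpG-rich promoters. With 150-base sequences, 93.1% occurred once. The other 54 values stayed within 1.5 times of the reported count or within the 95% binomial interval of the reported share. One of these, chosen after seeing the data, required 500 kb of single-copy sequence and kept 553 stretches. For GC and soft-masked shares the binomial interval treats every base as an independent draw, so it is very narrow and measures no real spread. With 1 library and no read totals, a weak site cannot be told from an empty one.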

Other observations

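Sequence before the first or after the last peak of a chromosome is not an interval between peaks, but it added 2 long segments. The first 6107721 bases of chromosome 14 held 3.11 Mb of sequenced bases, 61.9% of them soft-masked, and no peak. This segment contained 65 coding gene starts, of which 62 have Gm names, and 11 closed CpG-rich promoters, of which 6 had under 50% single-copy sequence. The median single-copy share of these 11 promoters was 45.5%. The other segment, the last of chromosome 14 (chr14:124264864-124902244, 0.537 Mb), held the start of Fgf14, a regulator of neuronal sodium channels.

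Some shorter intervals held more closed CpG-rich promoters than any stretch. Below 500 kb, 11 intervals had 3 or more and 5 had 4 or more. The interval chr14:69220529-69692584 (472 kb) had 5, those of Slc25a37, Entpd4, Gm16867, Entpd4b and Loxl2, but 7.42% of its 75-base sequences occurred once and all 5 promoters had 0% single-copy sequence.

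In 2 of the 5 intervals nearly all sequence was single-copy. The interval chr12:78940378-79171806 (231 kb, 93.1%) held the closed CpG-rich promoters of Tmem229b, Plekhh1, Pigh, which encodes a part of the enzyme that starts GPI anchor synthesis, and the arginase gene Arg2. Pigh lay 82.2 kb from the nearest peak, and the 500 kb on either side held 12 and 29 peaks. The interval chr4:119378548-119539170 (161 kb, 100%) held those of Ccdc30, Ppcs, which encodes an enzyme of coenzyme A synthesis, Zmynd12 and Rimkla, with 29 and 23 peaks in the flanks.

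The tumour suppressor genes Cdkn2a and Cdkn2b, which many mouse fibroblast lines have lost, lay in 1 peakless interval of 127.7 kb of sequenced bases on chromosome 4 (chr4:89235382-89393468), below the limit used here. Both promoters were CpG-rich with 100% single-copy sequence, and lay 59.3 and 75.7 kb from the nearest peak, while the neighbouring gene Mtap had a peak at its 5′ end. Whether these genes are present in the line was not tested.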
